A study of Homo sapiens with 26 samples.

Results

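The genes described here are those that carried both of the study's gene-level marks of EZH2. They changed in U87MG cells treated with siRNA against EZH2, and they shared at least 1 base, on either strand, with a gene listed as a full-length RNA target of EZH2 in T98G cells. The authors' deposited siRNA table held 1342 genes and the full-length list 824 rows. The overlap was 122 genes, 9.09% of the table, and it took in 121 rows, 14.7%, of the full-length list. Members were thus chosen by the authors' siRNA calls and by the full-length EZH2 calls, and the sign and size of the siRNA log2 fold changes below are given as a description of the chosen genes, without a test.

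U87MG and T98G are glioblastoma lines and K562 is a chronic myeloid leukaemia line, per the labels. The siRNA arms were U87MG cells given siRNA against EZH2 or against GFP, which served as the control, with 2 libraries of polyadenylated RNA each. The full-length list is named under a single iCLIP library of untreated T98G cells, made after ultraviolet crosslinking and EZH2 immunoprecipitation with 2 antibodies. The labels do not say if the T98G long RNA immunoprecipitations contributed to it. Exon lists of EZH2-associated small RNA came from RNA immunoprecipitation in untreated T98G and U87MG (2 EZH2, 2 IgG and 2 input libraries each) and K562 (1 of each). None of the 15 glioblastoma and astrocyte genes or the 6 leukaemia line genes had a row in the siRNA table. Since the lists hold no levels, the labelled cell types could not be checked against markers. EZH2 itself had no row in the siRNA table, which by its name holds only genes that passed the authors' test. A change of EZH2 was thus not among the called ones. The knockdown was not evident in the table that the values below come from, and its size could not be read there either. The direction of the log2 fold changes, siEZH2 over siGFP, was taken from the order of names in the table's title and could not be checked, and every "lower" and "higher" below rests on it. One siEZH2 library names EZH3 in its treatment label and EZH2 in its title, and the title was followed.

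EZH2 is the catalytic subunit of Polycomb repressive complex PRC2, which methylates a lysine of histone H3 at silent genes. The complex binds many RNAs in cells, with broad preferences, and RNA binding competes with its binding to chromatin. Loss of PRC2 function is best known for the release of silenced developmental genes, whereas the transcripts of active genes are a large share of the RNA found with it.

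The table's rows passed an adjusted p of 0.05 in the authors' DESeq2 test, per its name. Nothing in the labels says that the 2 libraries of an arm came from separate cultures, so that test measures the spread between these libraries, which may be technical. The files gave no value for any single library. Depth, expression level and replicate error were therefore unknown for every gene, and the values below have no SD.

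Most of the 122 genes were lower under siEZH2. Lower values stood in the authors' deposited table for 102 members (83.6%) and higher values for 20 (16.4%), with a median log2 fold change of -0.72. Of all 1342 rows of that table, 50.7% were lower and 49.3% higher, with a median of -0.47, and 579 of the 1220 rows that are not members (47.5%) were lower. The falls were of like size in members and other genes: the 102 lower members had a median of -0.76 in the authors' deposited table, and the 579 other lower genes had -0.74. The rises were somewhat smaller among members, with a median of 0.85 for 20 genes against 1.02 for 641 others in that deposited table. An absolute log2 fold change of at least 1 was reached by 24 members (19.7%), of which 17 were lower and 7 higher, against 34.9% of the whole table. Among lower genes it was reached by 16.7% of members and 18.1% of other rows. Among higher genes it was 35% of members and 52.9% of other rows, so the table-wide share is mostly one of higher genes. The members ran from -1.54 for THBS1 to 1.85 for MCF2L in the authors' deposited table, with none between -0.48 and 0.46.

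**Figure D1:**
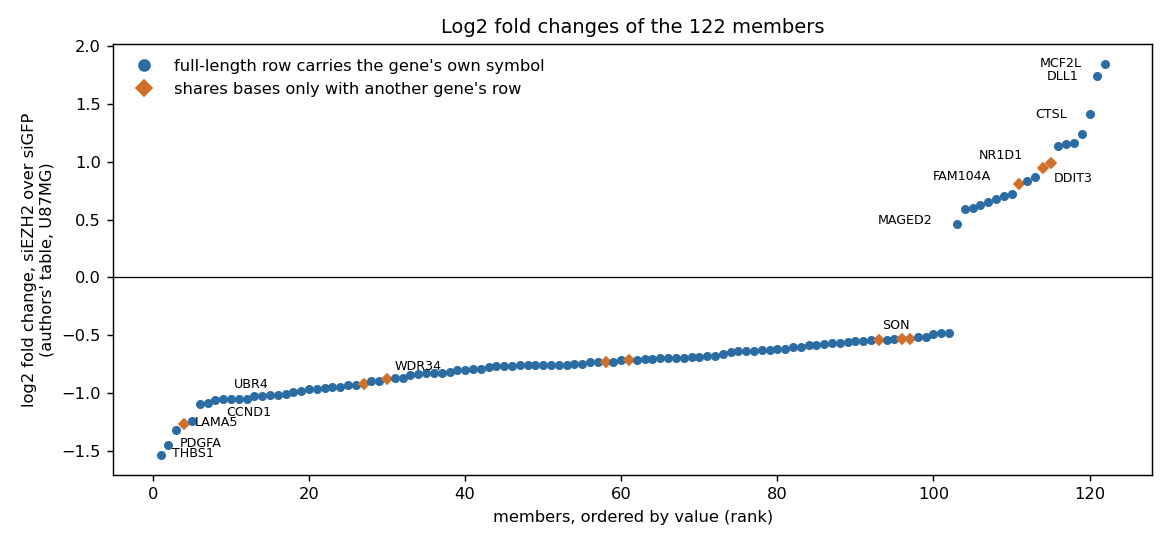
Each point is 1 of the 122 members, ordered along the horizontal axis by its log2 fold change (vertical axis, siEZH2 over siGFP in U87MG, authors' deposited table); circles share a symbol with a full-length row and diamonds share bases only with another gene's row. The 102 lower genes form a long shelf between -1.54 and -0.48, and the 20 higher genes rise from 0.46 to 1.85; 8 of the 11 diamonds are on the lower side.

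The overlap by position had 2 kinds of member. In 111 genes (94 lower, 17 higher) the full-length row carried the gene's own symbol. The other 11 met only the row of a neighbouring gene, and in all 11 that neighbour lay on the opposite strand. They were LAMA5, GTPBP1, WDR34, PPP6R2, MFSD12, SON, EIF3G and DNM2, which were lower, and FAM104A, DDIT3 and NR1D1, which were higher. DDIT3, the stress-induced transcription factor CHOP, shared 982 bases with MARS. NR1D1, the clock repressor REV-ERB alpha, shared 1081 bases with THRA, which encodes a thyroid hormone receptor. Another 3 members met their own row and also that of an opposite-strand neighbour: GLIS2 (8049 bases with the row of PAM16 and CORO7), PIEZO1 (44 bases with CTU2) and ALG12 (292 bases with CRELD2). The siRNA libraries were aligned as unstranded, so reads of 2 genes that share bases could not be told apart there.

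The thinnest overlaps were 2 bases (WDR34 with SPTAN1), 70 bases (MFSD12 with FZR1) and 86 bases (PPP6R2 with SBF1). Just outside were PRADC1, 181 bases from CCT7, TANGO2, 205 bases from ARVCF, and HSP90AB1, 212 bases from SLC35B2. In the authors' deposited table these 3 outside genes stood at -0.83, -0.77 and -0.57, and the 3 just inside at -0.88, -0.72 and -0.73. Leaving out the 11 neighbours kept 94 of 111 genes (84.7%) lower.

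In 4 places both genes of an overlapping pair were members. The pairs SPTAN1 and WDR34 (-0.80 and -0.88) and ADRM1 and LAMA5 (-0.71 and -1.27) fell together in the authors' deposited table. The other pairs went opposite ways in it. COG1, a subunit of a Golgi tethering complex, was at -0.76 and FAM104A at 0.81, with 1155 bases shared. DNM2, the membrane-cutting GTPase dynamin, was at -0.53 and TMED1, a cargo receptor of early secretion, at 0.68, with 1051 bases shared.

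The members were sorted into 11 classes by function after their values had been seen, so class medians are descriptions only. Every member was placed in 1 class. In 4 classes all members fell: ubiquitin and proteolysis (10 genes), RNA processing and translation (12), cytoskeleton and motors (8), and chromatin and DNA repair (8). In 3 more, 1 or 2 genes ran the other way: extracellular matrix, collagen modification and adhesion (15 of 16 lower), lysosome, autophagy and nutrient sensing (11 of 12), and membrane traffic and secretion (11 of 13). Growth factors, receptors and signalling had 13 of 17 lower, metabolism, glycosylation and transport 5 of 8, and genes of other or little-known function 7 of 11. Among transcription factors 5 of 7 were higher, and 3 of 5 without DDIT3 and NR1D1, which met only a neighbour's row.

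**Figure D2:**
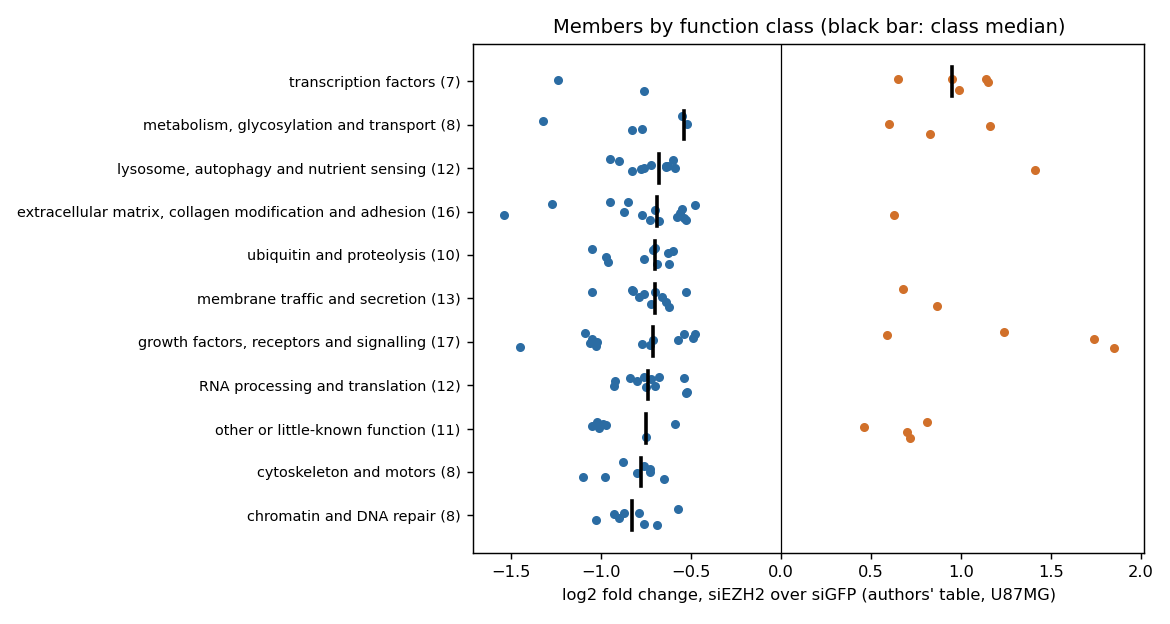
Each point is 1 member, placed by its log2 fold change (horizontal axis, siEZH2 over siGFP in U87MG, authors' deposited table) in its function class (rows, with the number of genes); blue points are lower, orange points higher, and the black bar is the class median. In 4 rows there are only blue points, and the median of the transcription factors, 0.95, is the only class median above 0.

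The matrix class held the largest fall. THBS1, the secreted matrix protein thrombospondin-1, was at -1.54 in the authors' deposited table. The basement membrane genes followed at -1.27 for LAMA5 (a laminin chain), -0.95 for HSPG2 (perlecan) and -0.73 for AGRN (agrin) in that deposited table. For the fibrillar collagen chain COL5A1 the deposited table gave -0.85, and for the collagen VI chains COL6A2 and COL6A1 -0.70 and -0.54. Enzymes and receptors that act on collagen fell within a narrow band, from -0.68 to -0.48 in the authors' deposited table. They were P4HB (the beta subunit of prolyl hydroxylase), BMP1 (which trims procollagen), PLOD3 (a lysyl hydroxylase), MRC2 (a receptor that takes up collagen) and LEPRE1 (another prolyl hydroxylase). Of 25 collagen-modifying genes, a list written after the values had been seen, 9 had a row in the table, 8 lower and 1 higher, with a median of -0.55. The non-members on it were PLOD1, LOX and LOXL3, at -0.54, -0.66 and -0.65 in the authors' deposited table, and CRTAP, the partner of LEPRE1, at 0.63. FAT1, a giant cadherin, TGFBI, a secreted adhesion protein, and the integrin chain ITGA3 were also lower, at -0.87, -0.77 and -0.56 in the authors' deposited table. The exception was ITGA5, the alpha chain of the fibronectin receptor, at 0.63 in the deposited table.

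A wider list of 81 matrix and adhesion genes had 24 in the siRNA table, 15 lower and 9 higher, with a median of -0.61. Its 11 members split 10 lower to 1 higher, and its 13 other genes 5 to 8. Among those others, ITGA6, VCAN and COL4A2 rose by 1.75, 1.20 and 1.22 on the log2 scale of the authors' deposited table. Whether members and other genes of the list differ was not tested.

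Lysosomal genes showed a like split. The proteases and hydrolases CTSF (cathepsin F) and GAA (acid alpha-glucosidase) were at -0.83 and -0.60 in the authors' deposited table. PSAP (prosaposin), GRN (progranulin) and TCIRG1, a subunit of the lysosomal proton pump, lay between -0.59 and -0.64 there. The lysosomal membrane proteins ATP13A2, MFSD12 and SIDT2 were at -0.78, -0.72 and -0.64 in the deposited table. Kinases and regulators that tie the lysosome to nutrient supply fell as well: MTOR, WDR24 (a subunit of a complex that activates MTOR) and ULK1 (which starts autophagy) were at -0.90, -0.95 and -0.76 in the authors' deposited table. CTSL, which encodes the protease cathepsin L, ran against them at 1.41 in the same deposited table. A list of 76 lysosome and autophagy genes, written after the values had been seen, had 23 in the siRNA table, 15 lower and 8 higher, with a median of -0.60. Its 12 members split 11 to 1 and its 11 other genes 4 lower to 7 higher. Among those 7 were the cathepsin genes CTSC, CTSH and CTSK, at 1.11, 1.47 and 1.84 in the authors' deposited table. They were higher like CTSL, whereas CTSF was lower.

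Ubiquitin ligases and their partners made up a class without exception. UBR4, a giant ligase that recognises the first residue of proteins, was at -1.05 in the authors' deposited table. The giant ligase HUWE1 and ZNF598, a ligase that marks collided ribosomes, were at -0.96 and -0.97 in the deposited table. DDB1, the adaptor of a cullin ligase, UBA1, the main ubiquitin-activating enzyme, and VCP, which extracts ubiquitin-marked proteins, were at -0.70, -0.60 and -0.63 in the authors' deposited table. The proteasome's ubiquitin receptor ADRM1, the protease DPP9, KBTBD6 and TRIM8 lay between -0.76 and -0.62 there. The same direction was general in the table: all 10 genes of a list of 54 ubiquitin ligases and deubiquitinases that had a row there were lower, with a median of -0.76, and 2 of these 10 were members.

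Genes of RNA handling and translation also fell throughout. AGO2, the slicing Argonaute of RNA interference, and GCN1L1, which senses stalled ribosomes, were at -0.93 and -0.84 in the authors' deposited table. SMG5, of nonsense-mediated decay, ZC3H7B, an RNA-binding protein, and INTS1, the largest Integrator subunit, were at -0.80, -0.75 and -0.68 in that deposited table. VARS (valyl-tRNA synthetase), NOL6 (ribosome biogenesis), SON (splicing) and the initiation factor subunits EIF3G and EIF3B lay between -0.72 and -0.52 there, and GTPBP1 and CLUH were at -0.92 and -0.76 in the authors' deposited table. Here too the wider lists went the same way: 8 of 8 genes of a translation list and 8 of 8 of an RNA processing list were lower, with medians of -0.69 and -0.73. There were 4 members in each list.

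Cytoskeletal members were large scaffolds and motors. The actin crosslinker FLNC (a filamin) was at -1.10 in the authors' deposited table. DYNC1H1, the heavy chain of cytoplasmic dynein, and WDR34, a chain of the dynein of cilia, were at -0.98 and -0.88 in it. SPTAN1 (spectrin), TLN1 (talin), SYNE1 (nesprin) and the kinesin KIF1C lay between -0.80 and -0.65 in the authors' deposited table. A list of 72 cytoskeletal genes had 12 in the table, 9 lower and 3 higher, with a median of -0.73; its 7 members were all lower, and its other genes were 2 lower and 3 higher. Membrane traffic members included DNAJC5 (cysteine string protein), AP2A1 (a clathrin adaptor subunit), TFRC (the transferrin receptor), SRPR (the receptor of the signal recognition particle) and SEC16A (a scaffold of endoplasmic reticulum exit sites). These ran from -1.05 to -0.66 in the authors' deposited table. KIAA0100, COG1, LMF2, VPS13D, ARFGAP1 and DNM2 completed the lower ones, between -0.79 and -0.53 there. RAB3IL1, an exchange factor for a RAB GTPase, was higher at 0.87 in the deposited table, as was TMED1. In a list of 43 membrane traffic and endocytosis genes, 18 of the 19 with a row in the table were lower, with a median of -0.67. They were 5 of 5 members and 13 of 14 other genes.

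The chromatin and DNA repair class numbered 8 genes, 5 chromatin regulators and 3 repair genes, and all fell. SETD1B, a histone methyltransferase of active genes, HDAC7, a histone deacetylase, and KDM4B, a histone demethylase, were at -1.03, -0.93 and -0.76 in the authors' deposited table. Polycomb repressive complex PRC1 was represented by CBX6, which reads the mark that EZH2 makes, and BCOR, a corepressor in a variant of the complex, at -0.87 and -0.90 in the deposited table. The repair genes UVSSA, C17orf70 (a subunit of the Fanconi anaemia core complex) and PRKDC (the catalytic subunit of the DNA-dependent protein kinase) lay between -0.79 and -0.57 in it. Of 34 PRC2 and PRC1 genes, 4 had a row in the siRNA table, 2 lower and 2 higher, with a median of 0.29. CBX6 was the only member among them, since BCOR is not on that list; PHF19 and RNF2 rose by 1.24 and 1.42 and ASXL2 fell by 0.66 on the log2 scale of the authors' deposited table.

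Signalling members ran from ligands to cell cycle kinases. PDGFA, a ligand of the platelet-derived growth factor receptors, was at -1.45 in the authors' deposited table. The semaphorin receptor PLXNB2 and the receptor NOTCH1 were at -1.03 and -1.02 there, AMOTL2 (an angiomotin, which binds YAP) at -1.09, TNFAIP2 at -1.05 and CCND1 (cyclin D1) at -1.06. VAV2, PPP6R2, FIBP, GNAI2, ANKRD52, CD81 and MKNK2 had smaller falls, from -0.77 to -0.48 in the authors' deposited table. Notch signalling had members on both sides. The ligand DLL1 was at 1.74, the second highest value of all members, while its receptor NOTCH1 was at -1.02 in the authors' deposited table. Of 31 Notch pathway genes, a list written after the values had been seen, 5 had a row in the table, 3 lower and 2 higher, with a median of -0.54. Among the others, NUMB was at -0.58 and ADAM10 at 0.79 in the deposited table.

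Among the remaining lower members, ABCA7, a lipid transporter, and GLIS2, a zinc finger transcription factor, were at -1.32 and -1.24 in the authors' deposited table. OGT, which attaches a sugar to nuclear and cytosolic proteins, and PIEZO1, a mechanically gated channel, were at -0.83 and -0.77 in it. PFKL (phosphofructokinase of liver type) and ACADVL (an acyl-CoA dehydrogenase) were at -0.55 and -0.52 in the deposited table, and ZNF646 was at -0.76. The nuclear pore protein AAAS, SEZ6L2, TMEM104, NT5DC2 and TMEM184B lay between -1.02 and -0.75 in the authors' deposited table. HSPA1B was at -0.59 there and has a near-identical copy, HSPA1A, so its value is uncertain. FLJ27365, the only one of the 122 without a protein-coding annotation, matched by position the long noncoding host gene of let-7 microRNAs, MIRLET7BHG. Its span on chromosome 22 (hg19, 46449749 to 46509808, plus strand) holds the hairpins MIRLET7A3, MIRLET7B, MIR3619 and MIR4763, and it was at -1.05 in the authors' deposited table.

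The 20 genes that ran against the main direction were led by MCF2L, a guanine nucleotide exchange factor (1.85), DLL1 (1.74), CTSL (1.41) and PTPRS, a receptor tyrosine phosphatase (1.24), all from the authors' deposited table. SLC4A3, an anion exchanger, followed at 1.16 in it. The 5 transcription factors among them included SOX4, a regulator of cell fate (1.14), NR1D1 (0.99), DDIT3 (0.95) and TEF, a clock-controlled factor (0.65), in the authors' deposited table. DDIT3 belongs to a list of 41 genes of the unfolded protein and amino acid starvation responses, of which 8 had a row in the table, 6 higher and 2 lower, with a median of 0.77. The rest were ALG12 (a mannosyltransferase), OAT (ornithine aminotransferase), PLK2 (a stress-induced kinase of the polo family), ITGA5, TMED1, RAB3IL1, FAM104A, IVNS1ABP, TMEM106C and MAGED2. These 10 ran from 0.46 to 0.87 in the authors' deposited table. Higher members were shorter than lower ones, with a median span of 11.5 kb against 30.7 kb and a median of 10 exons against 20.

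The exon lists of EZH2-associated small RNA were not used by the rule, although they come from the same protein and, for T98G, the same line as the full-length list. Members held such exons more often than the table did. A T98G exon lay in 35 members (28.7%) against 15.0% of the table. A U87MG exon lay in 17 (13.9%) against 5.22%, and a K562 exon in 12 (9.84%) against 4.10%. In at least 1 line an exon was called in 43 members (35.2%), against 194 of the 1220 other genes of the table (15.9%). No test was made over genes.

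The shares also differed outside the members. Among genes that are not members, 22.5% of the lower and 9.98% of the higher had an exon in at least 1 line. Full-length targets outside the siRNA table held a T98G exon in 24.3%, a U87MG exon in 9.82% and a K562 exon in 4.27% of 703 rows. Among members the exons were almost all in lower genes: 41 of 102 lower and 2 of 20 higher genes had one. The 2 were MCF2L, in T98G, and OAT, in K562. The shares are also given by terciles of the table in gene span. In the shortest tercile a T98G exon was called in 11 of 55 members (20.0%) and 5.36% of 392 others, in the middle tercile in 12 of 47 (25.5%) and 15.0% of 400, and in the longest tercile in 12 of 20 (60%) and 19.9% of 428. Expression, which both calls need, was not in the files, and its part in these shares, like that of gene span, was not tested.

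**Figure D3:**
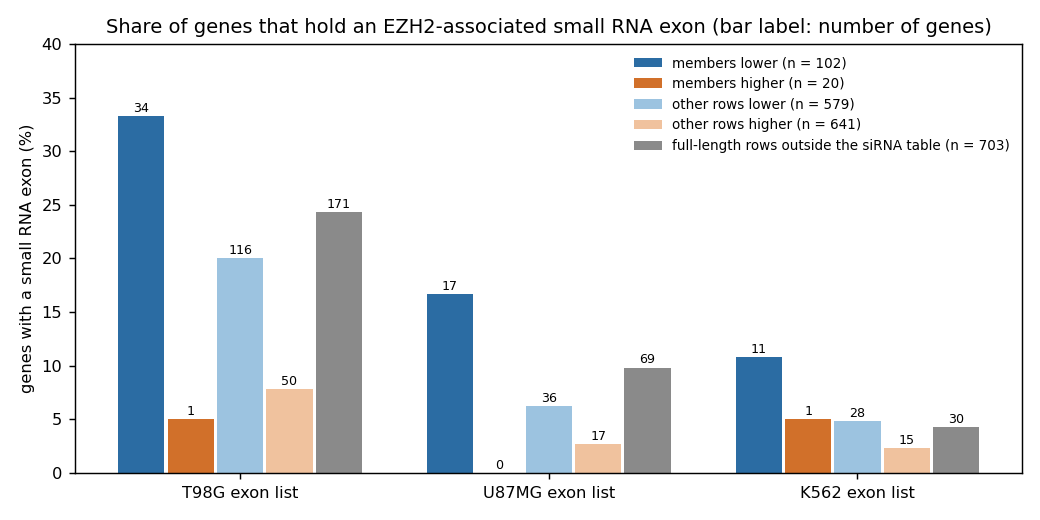
Bars give the share of genes (vertical axis, percent) that hold a small RNA exon in the T98G, U87MG and K562 lists, for lower and higher members, lower and higher other genes of the siRNA table, and full-length rows outside the table; the number on a bar counts the genes. Lower members have the highest bar in each list (34, 17 and 11 of 102 genes), and higher members have 1, 0 and 1 of 20.

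The classes differed in how often they held an exon. Cytoskeletal genes did in 7 of 8 cases (SYNE1, the longest member, was the one without), RNA processing and translation genes in 7 of 12, ubiquitin genes in 4 of 10, and chromatin genes in 4 of 8. Lysosomal genes did in 5 of 12, membrane traffic genes in 5 of 13, metabolism genes in 4 of 8 and genes of other or little-known function in 2 of 11. Matrix genes did in 3 of 16 (FAT1, P4HB and PLOD3), signalling genes in 2 of 17 (AMOTL2 and MCF2L) and transcription factors in 0 of 7. Over all members the share was 35.2%, and the classes are small. The 5 lowest members, THBS1, PDGFA, ABCA7, LAMA5 and GLIS2, had none.

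There were 6 members with an exon in all 3 lines: UBR4, HUWE1, DYNC1H1, GCN1L1, DDB1 and ZC3H7B, 4.92% of members against 1.42% of the table. In UBR4, exons 64 and 95 of 106 were called in all 3 lines, in DYNC1H1 exon 49 of 78, in ZC3H7B exon 14 of 23, and in DDB1 a region over exons 7 and 8 of 27. HUWE1 and GCN1L1 had exons in each line but none in all of them. The GCN1L1 exons were 37 of 58 in T98G, 58 in U87MG, and 8 and 9 in K562. A further 9 members had exons in 2 lines: MTOR, SPTAN1, KIAA0100, OGT, AGO2, PRKDC, AMOTL2 and WDR34 in T98G and U87MG, and SIDT2 in T98G and K562. In a single line, SMG5, UVSSA and TLN1 had a U87MG exon, and TFRC, PSAP, SRPR, PIEZO1 and OAT a K562 exon.

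Of the 27 U87MG exons in members, 22 (81.5%) were also called in T98G, against 65.0% of all U87MG exons. Of the 14 K562 exons, 5 (35.7%) were in the T98G list, against 45.6% of all K562 exons. The lists together made 72 exon regions in members. By the canonical transcripts of GENCODE, 45 were coding exons, 19 were coding exons reaching into an intron, 5 joined coding and untranslated sequence, 1 was a 5′ untranslated exon of HUWE1 and 2 met no exon of the canonical transcript. All were on the member's own strand.

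**Figure D4:**
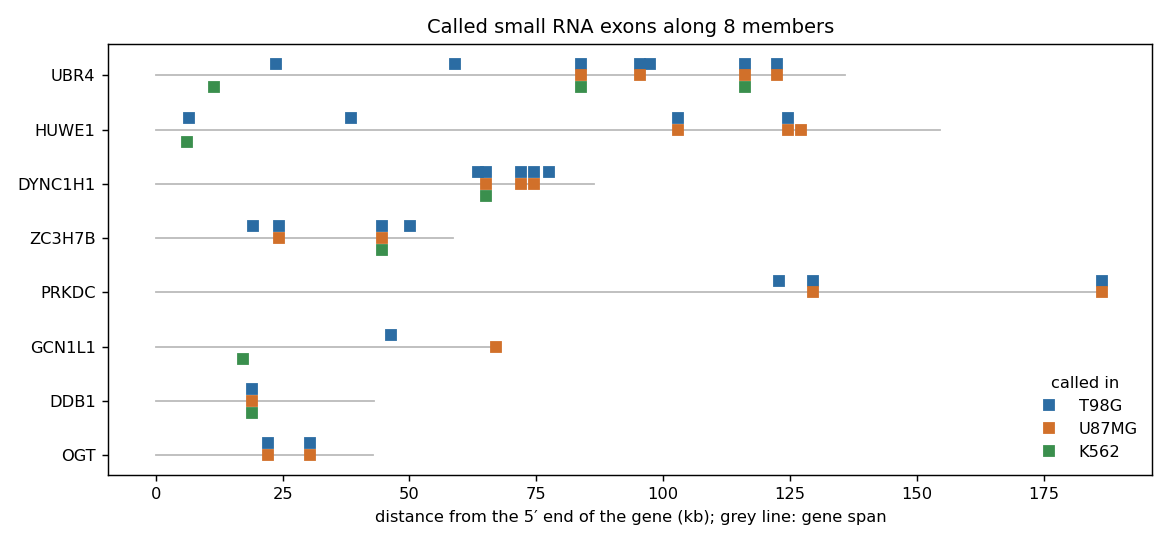
Grey lines are the spans of 8 members from their 5′ end (horizontal axis, kb), and squares mark the middle of each called small RNA exon, in the upper row for T98G, the middle row for U87MG and the lower row for K562. Squares are stacked where lines share an exon, as at exons 64 and 95 of UBR4; the DYNC1H1 exons start between 63.41 and 77.48 kb of a span of 86.3 kb.

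The series names mispriming in reverse transcription as a source of false reads, and the sequence beside a peak bears on this. A primer that anneals to the RNA at bases like those of the adapter gives reads that end just before them. The adapter of the small RNA kit starts with AGATCGG, per general knowledge of the kit and not per the labels. In the T98G list the deposited score was read as the signed distance from exon middle to peak middle, a meaning inferred from the values. On that reading the middle of the read peak can be placed in 57 of the 58 member exons. Bases were counted downstream from the peak middle on the RNA strand, and AGAT starting at bases 11 to 15 was searched on that strand only. It was there in 15 of 57 peaks (26.3%), in 14 of 34 members, and at the same bases shifted by 20 in 1 (1.75%). Over all T98G exons the shares were 25.8% and 3.41% of 2463 peaks, and 17.8% and 2.17% of 230 over the other genes of the siRNA table. The members' peaks thus held these bases about as often as the list as a whole. Of the 22 peaks whose exon was also called in U87MG, 8 held AGAT, and of the 35 others 7.

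The sequences below start 5 bases before the peak middle and run 30 bases, 5′ to 3′ on the RNA strand of hg19. Capitals mark the longest match to the adapter start. The first 2 have the longest match among members, the next 3 lie in exons called in all 3 lines, and 3 more are in MTOR, OGT and TCIRG1. The last 2, also in exons called in all 3 lines, hold no match in the window.
AP2A1 (chr19:50306396-50306425, plus): agaaccagctgctgcAGATCGGagtcaagt
GCN1L1 (chr12:120585994-120586023, minus): acagcaggcgctcaggcAGATCGGctccgt
UBR4 exon 95 (chr1:19420567-19420596, minus): tgatgctcttggaccAGATCaacagcacct
DYNC1H1 exon 49 (chr14:102496012-102496041, plus): acgtggggctcaggaAGATCaaagagacag
DDB1 (chr11:61091489-61091518, minus): tggagaaggaggaacAGATggatggcaccg
MTOR exon 13 (chr1:11297980-11298009, minus): tgaatgaccaggtgtttgAGATCcgggagc
OGT exon 7 (chrX:70775120-70775149, plus): atgagcaaggcctgatAGATCtggcaatag
TCIRG1 (chr11:67811082-67811111, plus): tgagcagatcggacagaAGATCcgcaagat
UBR4 exon 64 (chr1:19453035-19453064, minus): tgctggaatattggaagagccaacagaatg
ZC3H7B exon 14 (chr22:41742075-41742104, plus): gacgtgtggaccgaggagcggaagggcacc

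In AP2A1, UBR4 exon 95, DYNC1H1 exon 49 and DDB1 the match starts at base 11, in OGT at base 12, in GCN1L1 and TCIRG1 at base 13 and in MTOR at base 14. The TCIRG1 stretch also holds agatcgg before the window, whereas its match in the window is AGATC only. UBR4 has peaks with and without AGAT in the window. Those in exons 95 and 99 hold it and the peak in exon 64 does not, although exons 64 and 95 were called in the same 3 lines. Only matches to the first bases of the adapter were searched, so likeness to its later bases is not covered. A match describes the reference sequence at a peak; whether reads there came from misprimed cDNA was not tested.

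WDR34 was the only member in the authors' list of retained introns, against 6 genes of the whole table. Both introns that flank its exon 2 were listed, at chr9:131399306-131402971 and chr9:131403217-131418821 of hg19 on the minus strand, with deposited scores of 1.24 and 1.61. Exon 2 itself (131402970 to 131403218) was called in both glioblastoma lines. WDR34 was also the member with the thinnest overlap, 2 bases with SPTAN1 on the opposite strand.

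Members were nearer to the full-length list in GC content than to the rest of the siRNA table. Since 111 of them are genes of that list, this likeness is tied to the rule that chose them. The members' exons had a median GC content of 58.4% (quartiles 53.9 and 62.6). It was 45.1% (40.3 and 52.6) for other genes of the table and 59% for full-length rows outside it. Lower and higher members had medians of 59.4% and 55.6%, and lower and higher other genes 45.3% and 45.0%. Members had more exons (median 19 against 9) and longer coding sequence (2634 against 1398 bases) in a shorter span (27 against 44.5 kb). For full-length rows outside the table the median span was 23.7 kb and the median exon number 14.

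**Figure D5:**
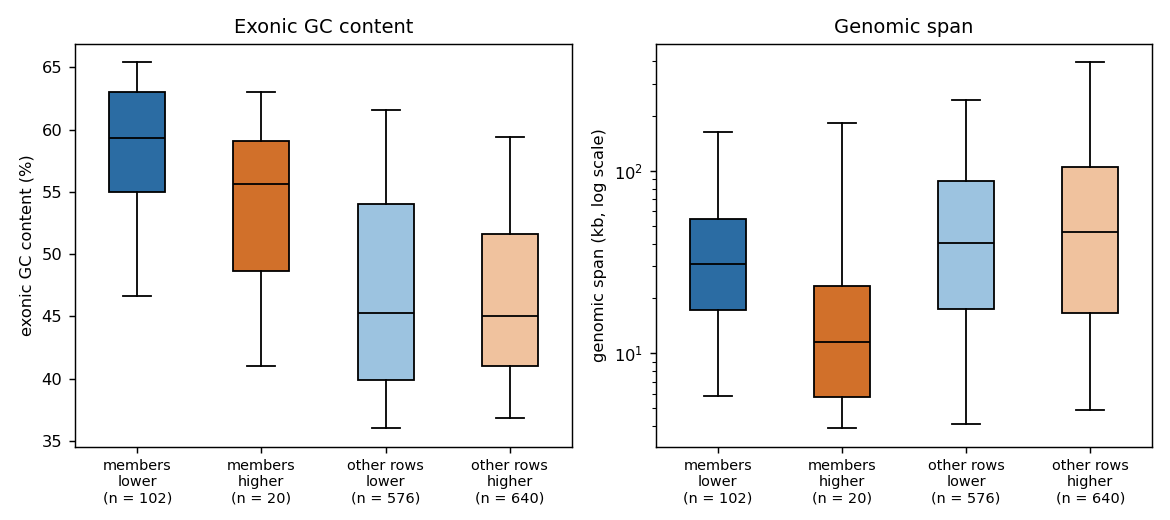
Boxes give the quartiles and median, with whiskers from the 5th to the 95th percentile, of exonic GC content (left, percent) and genomic span (right, kb, log scale) for lower and higher members and lower and higher other genes of the siRNA table. Both member groups sit higher in GC content, with medians of 59.4% and 55.6% against 45.3% and 45.0%, and the higher members have the shortest spans, with a median of 11.5 kb.

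The share of lower genes was set against these properties. In the tercile of the table with the highest exonic GC content, 90 of 103 members (87.4%) and 181 of 343 other genes (52.8%) were lower. In the middle tercile it was 10 of 15 members and 39.7% of 431 others, and in the lowest tercile 2 of 4 members and 50.7% of 442 others. By exonic length, lower genes made up 69.7%, 84.4% and 93.2% of members from the shortest to the longest tercile, and 40.9%, 46.6% and 54.7% of other genes. The lowest GC tercile holds only 4 members, too few to set their share against that of the others. The part of GC content and length in the direction of the members was not tested.

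The members were spread unevenly over chromosomes. Chromosome 17 held most (14), followed by 9, 19 and 22 with 10 each, whereas chromosome 2 held 1 and chromosome 18 none. On chromosome 22, 10 of 29 table genes (34.5%) were members, on chromosome 21, 4 of 13 (30.8%), and on chromosome 2, 1 of 94 (1.06%). The full-length list had 96 rows on chromosome 17, 39 on 22, 38 on 2 and 4 on 18.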

How the data were processed

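The authors' deposited lists of genomic regions were the only data. Per the labels, the siRNA reads were aligned to hg19 with Tophat 2 v2.0.11 without strand, counted per gene with featureCounts and tested with DESeq2, which gave the deposited log2 fold change per gene. Per the labels, iCLIP reads were aligned with Bowtie2 and small RNA reads with BWA, and peaks were called with pyicoclip. CASAVA 1.8 stands in the submitters' processing notes. Thresholds of the RNA lists are not given in the sources used here. The deposited score of retained introns has no stated scale and was used as a label. In the T98G list the authors' deposited score was read as the signed distance between exon and peak middle. This meaning and its sign were inferred from the values, and every peak position rests on them. Only rows that placed the peak middle at a whole base were used. There were 0 unused columns for single libraries.

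Overlaps (at least 1 base), counts and medians were computed in Python 3.11.15, and tested on simulated intervals. Gene structure and GC content came from GENCODE release 44 mapped to GRCh37 (114 members matched by symbol, 7 by an older symbol, 1 by position; 1216 of the 1220 other genes matched). Coordinates are 1-based.

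The members and gene lists were chosen with earlier results of these data known. The rule for named genes took all higher members, the 20 lowest, those with U87MG or K562 exons, exons in several lines or retained introns, list members, neighbours' overlaps and the 3 nearest each side of the overlap limit; further members were named to complete their classes. Alternatives changed the overlap rule, the size of the log2 fold change, the exon matching and the adapter bases. A few genes that the rule takes are counted but not reported here by name.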

Additional observations from a re-analysis of the deposited data

How the results depend on the processing

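Requiring at least 50% of the shorter row, the same strand or the same symbol each gave 111 genes, 94 of them lower (84.7%), with the median at -0.72 in the authors' deposited table; keeping own symbols only, an alternative added after the data had been seen, gave the same numbers. With an absolute log2 fold change of at least 1, 24 genes remained, 17 of them lower (70.8%). At the same cut, 122 of 468 rows of the whole table were lower and 346 higher. Matching small RNA exons or introns by strand, or exons by symbol, changed no count; keeping own symbols gave 33, 16 and 12 members with T98G, U87MG and K562 exons. In place of 26.3% for AGAT, 49.1% of peaks held AGA (control window 5.26%), 17.5% AGATC and 3.51% AGATCG; reading the distance with the other sign gave 3.51% for AGAT. No paired analysis was possible because the lists hold no values for single libraries, and for the same reason no replicate could be left out.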

Other observations

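Some lists had rows in the siRNA table but few members or none. Members made up 9.09% of all its rows, so lists with 9 to 16 rows would hold few or none at that share. Whether any list departs from it was not tested. Of a list of 24 p53 targets, 11 had a row in the table and all 11 were lower. Their median log2 fold change was -1.07 in the authors' deposited table, and 0 were members. The full-length list names 0 of the 24, so only overlap with a neighbour's row could have made one a member. PLK2, a member that p53 is also known to induce, is not on the p53 list and was higher. Of 38 listed cholesterol and fatty acid synthesis genes 9 had a row, of which 8 were lower, again with 0 members. Of 21 listed heat shock and chaperone genes 11 had a row and all 11 were lower, with HSPA1B the only member. HSP90B1, a chaperone of the endoplasmic reticulum placed on the unfolded protein response list, was at 0.72 in the authors' deposited table. Of 85 listed cell cycle and chromosome segregation genes 16 had a row, 14 of them higher; the 2 members on that list, CCND1 and PLK2, were at -1.06 and 0.59 in the authors' deposited table.

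RefSeq promoters (GRCh38.p14, 250 bases before to 50 after the start) were matched for 98 of the 122 members. Their median GC content was 70%, against 58.7% over all 35116 promoters of the table. The median ratio of CG pairs to the number awaited from the C and G content was 0.855 against 0.579. On either strand, CACGTG, the core that factors of the MYC and TFE families bind, was in 13 (13.3%), against 7.26% of all promoters, and GGGCGG, the core of the site of SP1, in 80.6% against 45.0%. CCAAT was in 36.7% against 34.6%, TATAAA in 11.2% against 11.5%, and TGACGTCA in 3.06% against 1.85%. The promoters of GAA and CBX6 also hold TCACGTGA, which includes CACGTG and occurs in 2.04% of members' and 0.98% of all promoters. CACGTG before the start was not particular to lysosomal members. It was also in the lower members BCOR, KDM4B, UVSSA, VAV2, SEC16A and UBA1 and the higher members PTPRS, IVNS1ABP and TEF. CACGTG and GGGCGG both hold a CG pair, and the shares were not adjusted for GC content or CG pairs. No share was computed for the other genes of the siRNA table. The stretches of GAA and CBX6, with that of the lysosomal gene CTSF, are printed with the motif in capitals.
GAA (chr17:80101478-80101537, plus): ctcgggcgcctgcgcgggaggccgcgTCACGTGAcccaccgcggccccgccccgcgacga
CBX6 (chr22:38872305-38872364, minus): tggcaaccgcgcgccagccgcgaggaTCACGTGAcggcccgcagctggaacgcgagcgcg
CTSF (chr11:66568697-66568756, minus): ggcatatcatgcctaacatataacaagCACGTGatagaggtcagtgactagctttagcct
CACGTG begins 76 bases before the start in GAA, 121 in CBX6 and 123 in CTSF. A match describes these letters only, and no factor binding was measured.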
